A study of Bos taurus with 2 samples.

Results

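The proteasome genes described here are those whose name on the array starts with PSMA, PSMB, PSMC, PSMD, PSME, PSMF or PSMG. The rule found 103 of the 51280 probes and 112 of the 61657 spots that are not controls, under 48 of the 32429 gene names. The name PSMC3IP also matches, but that gene codes for a recombination factor and not for a proteasome protein, and both of its probes were at background. The other 47 names were set into a core particle (18 genes, 39 probes), a regulatory particle (17 genes, 36 probes), activators (4 genes), an inhibitor (1 gene) and assembly chaperones (7 genes). PSMA8, the alpha subunit of the testis form of the core particle, was not analysed here.

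RNA came from spermatozoa of Holstein-Friesian (HF) crossbred breeding bulls, and each of the 2 fertility groups was hybridised to 1 bovine oligonucleotide array. No treatment, allele or other difference between the high-fertile and the low-fertile sample is stated. Age and the number of bulls behind each array are not given in the sources used here. RNA was primed with oligo-dT, amplified to Cy3-labelled antisense RNA and hybridised on a single slide. With 1 array per group no difference has a replicate check, no p-value is given, and each value describes these 2 arrays. In a bulk sample of this kind, fewer cells that carry a transcript and less of it per cell cannot be told apart.

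The proteasome degrades proteins that are tagged with ubiquitin. Its core particle is a barrel of stacked rings: the outer alpha rings gate the entry, and the inner beta rings hold the protease sites. The regulatory particle caps the barrel with a ring of ATPases that unfold substrates and with non-ATPase subunits that recognise and remove ubiquitin. In the male germ line proteasomes are known for protein turnover during spermatid remodelling, and in sperm for a part in fertilization.

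Most proteasome probes gave no signal well above background, as did most probes of the arrays. A probe counts as measured here if Feature Extraction called all its spots well above background on both arrays, which held for 22 of the 103 proteasome probes (21.4%) against 27.6% of all probes. These 22 probes stood for 17 genes, or 35.4% of the 48 names, against 36.0% of all gene names. The 17 include PSMB6, whose measured probe lies on the opposite strand, as described below. Without that probe 16 genes were measured, 6 of them in the core particle. By particle, 10 of 39 core probes (25.6%) and 11 of 36 regulatory probes (30.6%) were measured. Of the 28 probes outside these particles, 1 was measured (3.57%), that of the activator subunit PSME1. The lowest signal well above background was 22.6 for the high-fertile sample and 30.3 for the low-fertile sample, and 7 proteasome probes reached 4 times those signals on both. These 7 probes stood for 6 of the 17 measured genes, beside 4261 of all 11687 measured genes with such a probe. The members not well above background on either array were PSMA1, PSMA3, PSMA4, PSMA5, PSMB1, PSMB3, PSMB4, PSMB5, PSMB8 and PSMB10 of the core particle and PSMC1, PSMC2, PSMC3, PSMD1, PSMD2, PSMD3, PSMD6 and PSMD14 of the regulatory particle. They also included PSME2, PSME3, PSME4, PSMF1, PSMG1, PSMG2, PSMG3, PSMG4, PSMD5, PSMD9 and PSMD10. PSMB5 carries the chymotrypsin-like protease site, PSMD14 the deubiquitinase of the lid, and PSME4 is the activator known for histone removal in spermatids. A probe at background gives no level, so these transcripts cannot be called absent. For PSMD5, 1 of the 4 spots of one probe was well above background on the high-fertile array (signal 22.99). A probe outside the name rule, TC407358, which the files describe as the proteasome inhibitor PI31 (the protein of PSMF1), was well above background on the high-fertile array only, with signals of 25.4 and 25.5.

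**Figure D1:**
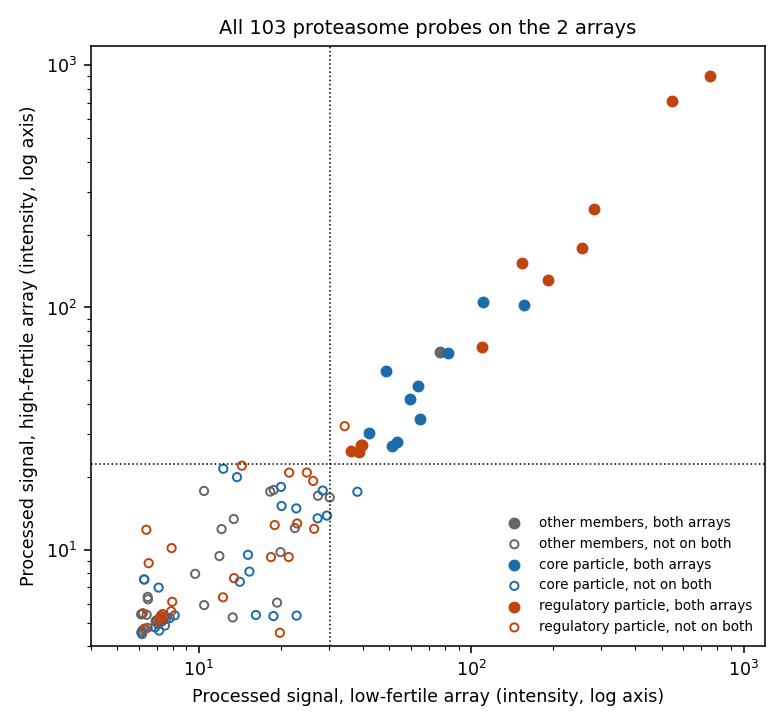
Processed signal of every proteasome probe on the low-fertile (x axis) and the high-fertile array (y axis), both in intensity units on log axes. Filled points are the 22 probes measured on both arrays, open points the other 81, colours give the particle, and dotted lines mark the lowest signal well above background (30.3 and 22.6). Most probes lie in the lower left field below both lines, and 2 regulatory probes, both of PSMD8, stand at the upper end.

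No measured proteasome gene differed 2-fold between the arrays in the scaling used here, while with spike-in scaling, where 15.2% of all genes were at least 2-fold lower, PSMA2 stood at -1.18 and PSMB6 at -1.20 on the log2 scale. Of the 17 measured genes 0 were at least 2-fold higher on the high-fertile array, where 1.87% of all 11687 measured genes were, and 0 were at least 2-fold lower, where 2.44% of all were. At 1.5-fold, 1 gene was higher (PSMD8, beside 7.61% of all genes) and 1 was lower (PSMB6, beside 8.73% of all). The PSMB6 value came from a probe on the opposite strand, described below. Counting any size, 6 were higher and 11 lower (64.7%, beside 50% of all genes). The median difference, high-fertile minus low-fertile on the log2 scale, was -0.21 with a range from -0.61 to 0.65, and over all measured genes it was 0.00 with quartiles at -0.25 and 0.24. The SD over the 17 genes was 0.34, against 0.46 over all genes. As measures of spread within this 1 pair of arrays, the difference had an SD of 0.28 between 2 spots of one probe (3038 probes). Between probes of one gene the SD was 0.42 (1774 genes). Neither holds the variation between bulls or between repeated arrays, so a value above them is not shown to be beyond error. Apart from PSMA2, PSMA6, PSMB6, PSMC6, PSMD4, PSMD8, PSMB7 and PSMC5, every measured member lay below that spot SD.

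The alpha ring had 3 measured genes of 7, and they did not go one way. Levels are given below as scaled signals, the signal in percent of the array's 75th percentile over measured probes. PSMA2 had a scaled signal of 23.3% in the high-fertile sample and 34.9% in the low-fertile one, 1.498-fold lower on the first (log2 -0.58). It rested on 1 spot of 1 of its 2 probes, at chr4:80909402-80909461 on the plus strand (all positions are on HGSC Btau_3.1, the build that the headers name). PSMA6 was measured by 2 of 3 probes, which lie apart at bases 801 and 884 of its transcript. The first read 18.03% and 27.4% (log2 -0.60) and the second 28.3% and 31.97% (log2 -0.18). Both were thus lower on the high-fertile array, and they lay 0.43 apart (mean -0.39, SD 0.30).

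PSMA7, the alpha subunit that its testis relative replaces, was measured by 2 of 5 probes that disagreed. Their sequences are shown because they share no bases and read separate stretches of one transcript:
PSMA7 at 167: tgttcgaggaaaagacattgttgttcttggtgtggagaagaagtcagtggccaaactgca
PSMA7 at 703: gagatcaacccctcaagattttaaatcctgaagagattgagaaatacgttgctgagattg
The probe at base 167 (chr13:55778354-55778413, plus strand) has 2 spots and read 43.8% in the high-fertile sample and 44.2% in the low-fertile one (log2 -0.01). The probe at base 703 read 36.7% and 26.1% (log2 0.49). Its placement, chr13:55781190-55781542, spans more of the genome than the probe's 60 bases. The mean of PSMA7, 0.24 (SD 0.36), therefore came from the second probe alone, and it was below 0 with spike-in scaling, with no filter on dim probes and with the brightest probe per gene.

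Of the 7 standard beta ring genes 2 were measured on both arrays and 1 on a single array. PSMB6, the subunit of the caspase-like site, had 18.7% in the high-fertile sample and 28.6% in the low-fertile one, the lowest difference of all members (log2 -0.61, 1.52-fold). That value came from 1 spot of a probe made from a 3′ read of a cDNA clone, and the probe runs opposite to the other PSMB6 probe. Its sequence and reverse complement are shown because the strand decides which RNA it can bind:
PSMB6 at 415: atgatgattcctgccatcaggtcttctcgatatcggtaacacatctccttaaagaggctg
PSMB6 at 415 reverse complement: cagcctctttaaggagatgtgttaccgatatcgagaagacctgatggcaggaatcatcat
The files place it at chr19:26939623-26939682 on the plus strand and the RefSeq probe of PSMB6 at chr19:26938979-26939038 on the minus strand. The RefSeq probe was at background, with signals of 14.8 and 22.8. Of 130 probes on the array that run opposite to the RefSeq probes of their gene 36.9% were measured, against 26.8% of 30078 that do not. The labelled RNA is antisense and pairs with probes that read like the mRNA. As placed, the measured probe reads the strand opposite to PSMB6 mRNA, so its value is not a reading of that mRNA. Which transcript gave its signal was not tested. PSMB7, the subunit of the trypsin-like site, read 68.8% and 84.1% (log2 -0.29) from 1 of 2 probes, at chr11:98624298-98624357 on the minus strand. With no filter on dim probes, which averages in its other probe (log2 1.14, at background on both arrays), PSMB7 changed sign to 0.43. PSMB2, a beta subunit without a protease site, was well above background on the low-fertile array only. Its signals were 17.4 and 38.2, at least 1.35-fold lower on the high-fertile array against the lowest signal well above background there. This bound is under the 1.5-fold at which members on one array were to be described. Of all genes on one array only, 33% had a bound of at least 1.5-fold and 11.9% one of at least 2-fold (16.6% of those on the low-fertile and 7.2% of those on the high-fertile array).

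Of the 4 core subunits that replace standard ones in particular cells 2 were measured. PSMB9, which replaces PSMB6 in immunoproteasomes, was nearly level between the arrays. Its probes at bases 674 and 684 read 31.99% against 34.2% and 20.5% against 22.6% (log2 -0.10 and -0.15, mean -0.12). They share 50 bases, so they are no independent readings. PSMB11, the subunit of thymic epithelium, read 70.8% in the high-fertile sample and 59.3% in the low-fertile one (log2 0.26) from its 1 probe, at chr10:22106157-22106216 on the minus strand. With spike-in scaling, which moved the median of all genes to -0.60, PSMB11 stood at -0.34.

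**Figure D2:**
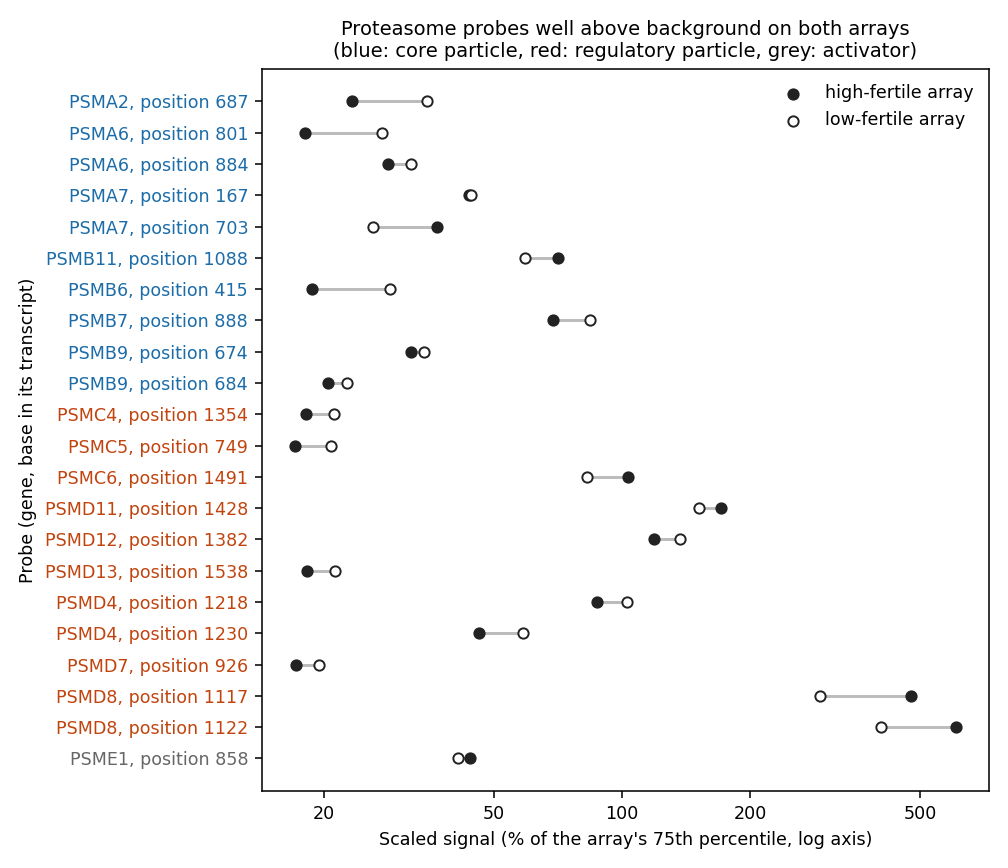
Scaled signal of each measured proteasome probe (x axis, percent of the array's 75th percentile, log axis) on the high-fertile (filled) and the low-fertile array (open), with the line joining the 2 arrays. Rows name the gene and the probe's base in the transcript it was made from, as the files give it. PSMA2, PSMB6 and the first PSMA6 probe have the longest lines to the right of the filled point, and both PSMD8 probes the longest to its left. A probe's level cannot be read against that of another probe.

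The ATPase ring had 3 measured genes of 6, all less than 1.5-fold apart. PSMC6 read 103.1% in the high-fertile sample and 82.8% in the low-fertile one (log2 0.32, -0.28 with spike-in scaling), from 1 spot at chr10:11289911-11289970. PSMC5 read 17.1% and 20.8% (log2 -0.29) from 1 of 3 probes, with signals of 25.4 and 38.8 that lie near the lowest well above background. PSMC4 read 18.1% and 21.1% (log2 -0.22), also near that limit. With no filter on dim probes PSMC4 stood at 0.01 and PSMC5 at 0.007. The array has a second PSMC4 probe, and its first bases are shown beside those of the first because the 2 have the same 60 bases:
PSMC4 probe 1: ccccaaacctagttctctttcctctttacc
PSMC4 probe 2: ccccaaacctagttctctttcctctttacc
The measured one gave -0.22. The other was well above background on the high-fertile array only, with a scaled signal of 21.8% against 18.4% (log2 0.24). Identical sequence thus gave opposite signs and a gap of 0.46, which is larger than the PSMC4 difference itself. Over 45 pairs of measured probes with one sequence, the pooled SD of the difference within a pair was 0.16. The SD of 2 values is smaller than their gap, so 0.16 and 0.46 are unlike measures.

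Of the non-ATPase subunits 6 of 11 genes were measured, a share close to that of the ATPases (3 of 6), and they held the highest difference. PSMD8, a lid subunit, had a scaled signal of 477% in the high-fertile sample and 292% in the low-fertile one at its probe at base 1117 (log2 0.71). At base 1122 it had 608% and 406% (log2 0.58). The mean was 0.65 (1.56-fold, SD 0.09), with signals at least 17.9 times the lowest signal well above background. The probes lie at chr18:47656990-47657049 and chr18:47656995-47657054 and share 55 bases with 1 mismatch, so their likeness does not count as replication. The 30 bases around AATAAA are shown because both probes share them and because these letters, in capitals, are those of the common polyadenylation signal:
PSMD8 at 1117: ccccccacccccAATAAAgatggattgaca
PSMD8 at 1122: ccccccacccccAATAAAgatggattgaca
The third PSMD8 probe, at base 547, was not measured. PSMD8 stood at 0.27 with no filter on dim probes, which averages that probe in, and at 0.05 with spike-in scaling, so its size rests on those choices.

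PSMD4, the ubiquitin receptor of the regulatory particle, was lower on the high-fertile array at both measured probes of 4. The probe at base 1218 read 87.2% and 102.6% (log2 -0.23) and that at base 1230 read 46.2% and 58.6% (log2 -0.34). They share 48 bases with 1 mismatch and hold the same letters, again in capitals:
PSMD4 at 1218: tctgtaaccactgcgccctaAATAAAgctt
PSMD4 at 1230: cactgcgccttaAATAAAgcttggcaactt
Their mean was -0.29 (SD 0.08), and both lie on the minus strand of chromosome 3, the first at chr3:21068850-21068909.

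The other 4 measured lid subunits differed by less than the spot SD. PSMD11 read 171% in the high-fertile sample and 152% in the low-fertile one (log2 0.17, -0.42 with spike-in scaling). PSMD12 read 119% and 137% (log2 -0.21), but its 2 spots gave 0.13 and -0.54, so its direction is not settled by its own spots. PSMD13 read 18.2% and 21.2% (log2 -0.22) from 1 of 3 probes, and PSMD7 17.2% and 19.5% (log2 -0.18) from 1 of 2. PSMD13 changed sign with normexp background correction and with no filter on dim probes.

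Among activators only PSME1, a subunit of the interferon-induced cap, was measured. It read 44.1% in the high-fertile sample and 41.2% in the low-fertile one (log2 0.10, -0.50 with spike-in scaling) at 1 of 2 probes, at chr10:21292202-21292261 on the minus strand.

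**Figure D3:**
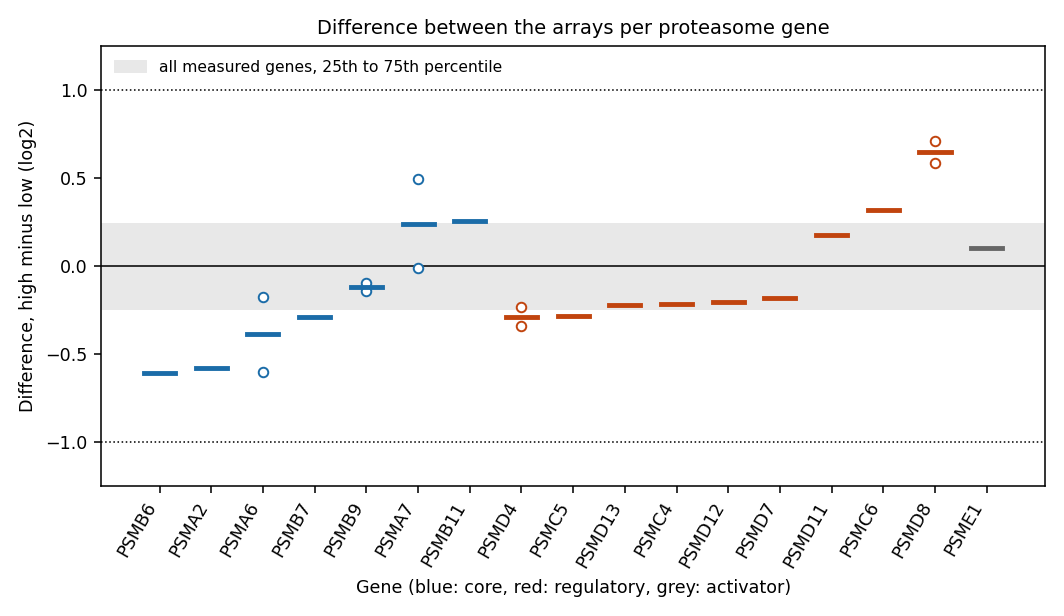
Difference between the arrays (y axis, log2, high-fertile minus low-fertile) of each measured proteasome gene, with bars for the gene and open points for its probes where it has at least 2. The grey band runs from -0.25 to 0.24, the quartiles of all measured genes, and dotted lines mark 2-fold. All 17 genes lie between -0.61 (PSMB6) and 0.65 (PSMD8), inside the dotted lines.

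Core and regulatory particle were then compared, since they join to form the complete proteasome. ADRM1 (log2 0.22) and SEM1 (log2 -0.27) are also regulatory particle subunits, but their names fall outside the rule and they were not counted. Core genes had a median difference of -0.29 (7 genes, 5 lower and 2 higher, from -0.61 to 0.26), and regulatory genes one of -0.21 (9 genes, 6 lower and 3 higher, from -0.29 to 0.65). The gap between the medians was -0.08, the ranges overlapped, and no error can be given for the gap from 1 array per group. It moved with the processing: it was -0.26 with no filter on dim probes, -0.18 without the replacement subunits, -0.18 with loess, -0.15 with quantile normalization, 0.03 with the brightest probe per gene and 0.04 with grid blocks centred. Leaving out the PSMB6 probe on the opposite strand, a choice made after seeing the data, set both medians at -0.21. The stricter filter on dim probes, which left 1 core gene, gave -0.46. Within the core particle the alpha ring had a median of -0.39 (3 genes), the 2 beta ring genes lay at -0.61 and -0.29, and the 2 replacement subunits at -0.12 and 0.26. ATPases had a median of -0.22 (3 genes) and non-ATPases one of -0.19 (6 genes). With scalings that shift an array as a whole, the distance of each particle from the median of all genes stays at -0.29 and -0.21. With normexp it was -0.10 and -0.05.

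**Figure D4:**
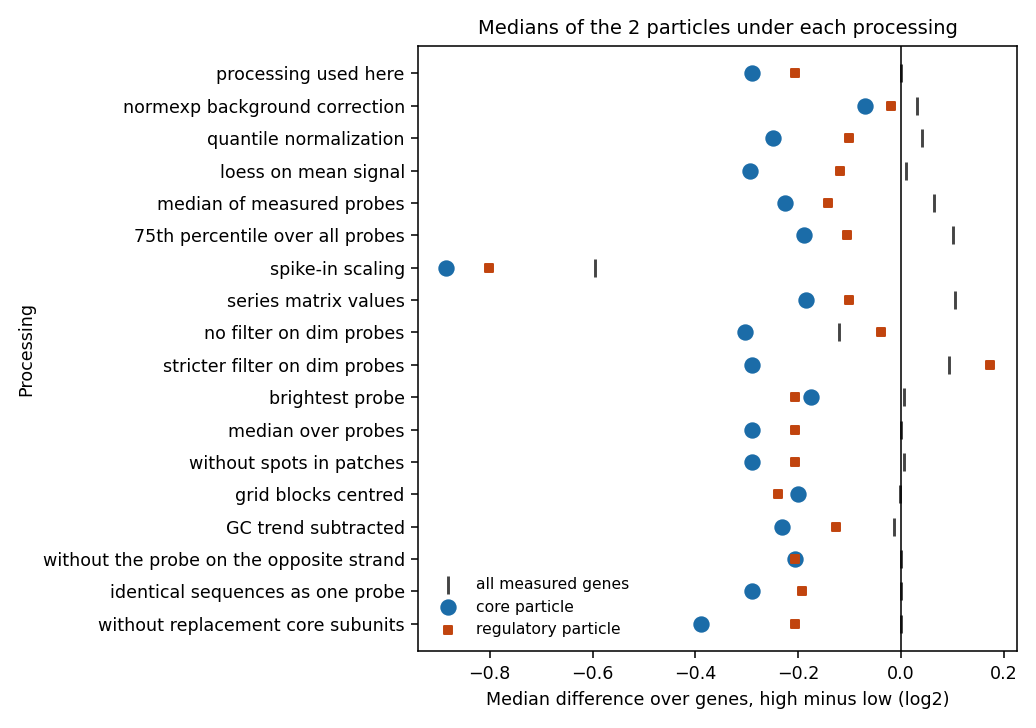
Median difference (x axis, log2, high-fertile minus low-fertile) of core particle genes (circles), regulatory particle genes (squares) and all measured genes (vertical ticks) under each processing (rows). The gap between circle and square runs from -0.46 (stricter filter) to 0.04 (grid blocks centred), and the 4 scalings that shift all genes alike leave it at -0.08 by construction. With the opposite-strand probe left out the symbols overlap, and under the stricter filter the core particle is 1 gene.

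The fainter members were more often lower on the high-fertile array than the brighter ones, at a limit chosen afterwards. Of the 7 genes whose brightest measured probe was under 2 times the lowest signal well above background on at least 1 array, 7 were lower on the high-fertile array, with a median of -0.29. They were PSMA2, PSMA6, PSMB6 (by its probe on the opposite strand), PSMC4, PSMC5, PSMD7 and PSMD13. Of the 10 brighter genes 6 were higher and 4 lower, with a median of 0.14. Over all 3954 genes as faint, 57.6% were lower (median -0.07), and over the 7733 brighter ones 46.1% (median 0.03). This limit of 2 was chosen after the values were seen, and the part of brightness in the differences was not tested. Of all spots, 33.2% (high-fertile) and 32.9% (low-fertile) were well above background.

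Sequence features of the probes were set beside detection. The motif AATAAA, searched on the probe's own strand, was in 17 proteasome probes (16.5%, against 8.35% of all probes). Of these 8 were measured (47.1%), against 14 of the 86 without it (16.3%). The 8 probes stand for 5 genes, since those of PSMB9, PSMD4 and PSMD8 are overlapping pairs. Over all probes the shares were 30.7% and 27.3%. Of the 19 proteasome probes whose genomic placement is longer than the probe, 1 was measured (5.26%), that of PSMA7, against 21 of 78 with a plain placement (26.9%). Over all probes they were 18.9% and 29.0%. In 10 genes with RefSeq probes of both kinds the probe nearest the 3′ end was measured in 7 and not in PSMA2, PSMA7 and PSMC5. Over all 3524 such genes of the array it was measured in 54.7%, and nothing is read from the 7 of 10. Priming with oligo-dT starts from the 3′ end, and its part in these shares was not tested. The median GC content was 45% in measured and 43.3% in unmeasured proteasome probes. None of the 22 measured probes shares 20 bases with a probe of another gene name.

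Other genes of the pathway were taken from a list of 31, of which 30 were found on the array and 15 were measured. Of all gene names 36.0% were measured. None of the 15 differed 2-fold (4.3% of all genes did). On the high-fertile array 5 were higher and 10 lower, where 50% of all genes were lower, and the median was -0.07. POMP, the maturation factor that the core particle needs for its assembly, had the largest difference: 32.8% in the high-fertile sample and 63.4% in the low-fertile one (log2 -0.95, 1.93-fold) at its 1 probe. UBA1, the main ubiquitin-activating enzyme, read 44.3% and 59.3% (log2 -0.42, SD 0.10 over 2 probes), and VCP, the unfoldase that feeds substrates to the proteasome, 43.7% and 55.1% (log2 -0.34, SD 0.39 over 2 probes). PITHD1 read 150% and 110% (log2 0.44) at 1 of 2 probes. NFE2L1, the transcription factor that raises proteasome genes when proteasomes are inhibited, read 37.9% and 28.1% (log2 0.43) at 1 of 5 probes. ADRM1, a ubiquitin receptor of the regulatory particle, read 55.8% and 47.8% (log2 0.22) at 1 of 4 probes. Spike-in scaling shifts all genes alike and moved the median of all genes to -0.60. With it POMP stood at -1.55 and UBA1 at -1.02, and PITHD1, NFE2L1 and ADRM1 fell below 0.

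The sample label was checked against marker genes. Of all gene names on the array 36.0% were measured. Of 10 spermatid and sperm markers 7 were measured, among them the protamine PRM1 (log2 -1.10, SD 0.28 over 2 probes) and the transition protein TNP2 (log2 1.22), while SMCP, AKAP4 and SPATA18 were at background on both arrays. Of 12 leukocyte markers 8 were measured (median 0.08, from -0.51 for PTPRC to 0.62 for CD4), while CD3E, CD8A and CSF1R were at background on both arrays. Of 8 epithelial markers 4 were measured (median 0.25, from 0.01 for MUC1 to 0.35 for KRT8), and CDH1 and EPCAM were at background on both. The 4 values were above 0 in the scaling used here, where 50% of all genes were lower on the high-fertile array. With spike-in scaling, which shifts all genes alike (median of all genes -0.60), these 4 fell below 0. Of 6 testis somatic markers on the array 5 were measured (median -0.02). Markers of other cell types were thus measured too. Their part in the proteasome values was not tested.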

How the data were processed

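The deposited scanner tables give a linear intensity for every spot. Per the file headers, the scans (1 colour) were read by Feature Extraction, version 11.5.1.1, which subtracted background and removed spatial trends, and probes carry positions on HGSC Btau_3.1. The deposited series matrix holds log2 values that equalled the log2 processed signals plus a constant per array (-5.12 and -5.55, within 0.01 for 98.6% of probes on each; column medians -1.43 and -1.37), and it served as an alternative. No step between arrays is stated in the sources used here.

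After removal of control spots and of 9 spots flagged as outliers, log2 signals of a probe's spots were averaged with no pseudocount, and each array's 75th percentile over the 14154 probes well above background on both was subtracted (148.6 and 186.3 in signal units). Under 50% of probes were detected on both arrays, so the percentile was taken over those. No spot was saturated. Differences of a gene's measured probes were averaged, and probes measured on one array were given as bounds. The number of arrays, 1 per group, limits the precision, and both arrays share a slide and a scan.

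Every member measured on both arrays was named with values, members on one array with a bound from 1.5-fold, and of other pathway genes the 3 largest differences per direction. The members, lists and rules were chosen with earlier results of these data known. Of 103 member probes 91 had an accession in the RefSeq table of assembly ARS-UCD2.0, each with the same symbol. That table was used for names only, and exon and UTR limits were not used here. Calculations used Python 3.11.15, pandas 2.3.3, numpy 2.4.6, statsmodels 0.14.6, and limma 3.58.1 in R 4.3.3 for normexp, and were tested on simulated data. Figures were drawn with matplotlib 3.10.9. Alternatives concerned background correction, scaling, filters, probes per gene, spots, GC content, thresholds and particle membership.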

Additional observations from a re-analysis of the deposited data

Results flagged for a closer look

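A probe outside the name rule carried a signal on both arrays. TC431195, described in the files as a partial sequence of the proteasome activator subunit 1 (PSME1), had a scaled signal of 28.4% (high-fertile) and 24.01% (low-fertile) (log2 0.24, 1 spot), beside 0.10 for the PSME1 probe. TC431195 was singled out because it is a proteasome signal in probes that the comparisons left out. Another such probe, LOC782521, described as similar to the alpha subunit of proteasome 28, was well above background on the high-fertile array only. Its signals were 29.6 and 19.5 (log2 0.93), and the second, at background, gives no level.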

How the results depend on the processing

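No paired analysis was possible because each fertility group has 1 array. Spike-in scaling, which rests on only 7 measured spike-in probes, moved the median of all genes to -0.60. It set the core median at -0.89 and the regulatory median at -0.80, with 2 proteasome genes (PSMA2 and PSMB6) and 2 pathway genes (POMP and UBA1) at least 2-fold lower, as were 15.2% of all genes. The members then split 1 higher to 16 lower, and 92.7% of all genes were lower. With the 75th percentile over all probes 38.5% of all genes were lower and with the matrix values 38.1%, while the members stayed at 6 to 11. With no filter on dim probes all 48 names had a value, and 2 of them were at least 2-fold lower (PSMB2 at -1.15, PSMB3 at -1.04), beside 5.57% of all genes. There 2 pathway genes passed that size (PAAF1 at -1.16, UBQLN1 at 1.002), beside 8.08% of all genes in either direction. The stricter filter left 1 core and 5 regulatory genes, with a regulatory median of 0.17 and a gap between particles of -0.46. At 1.5-fold the counts in either direction were 2 of the 17 proteasome genes and 1 of the 15 measured pathway genes, beside 16.3% of all genes. Of the 22 probes, 7 reached 4 times the lowest signal well above background. They stood for 6 of the 17 measured genes, beside 4261 of all 11687 measured genes. Apart from 4 scalings that shift all genes alike, 8 of 191 gene values moved by more than the spot SD. In at least 1 of those alternatives 5 of the 17 genes changed sign (PSMA7, PSMB7, PSMC4, PSMC5 and PSMD13). The sign of 4 others changed only with the common shift of spike-in scaling. With normexp background correction PSMA2 stood at -0.16, PSMB6 at -0.16 and PSMA6 at -0.10. The cause was not tested beyond what each alternative changes by construction. Low signal limits all but PSMD8, PSMD11, PSMD12, PSMC6, PSMB7 and PSMD4.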
